A study of Homo sapiens with 18 samples.

Results

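The serpins are a family of protease inhibitors, and 34 of their genes were described here in MDA-MB-231 cells without IMPDH2 and cells to which it was restored. MDA-MB-231 is an established line of breast carcinoma of the triple-negative class, without hormone receptors or HER2 overexpression. Members were the genes with at least 1 protein-coding transcript and a symbol made of SERPIN, a clade letter from A to I and a number. They were 34 of 62749 genes in the files, of which 19644 had such a transcript. Clade A held 10 of them, clade B 13, clade E 3, clades F and I 2 each, and clades C, D, G and H 1 each.

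Messenger RNA was sequenced in 18 libraries, 3 for each of 6 groups. WT were the unedited cells. KO-G carried a knockout of IMPDH2, which catalyses the slowest step on the way to new guanine nucleotides, and got no guanosine. KO+G were knockout cells grown with 400 µM guanosine, from which cells can make guanine nucleotides by salvage. KO-WT, KO-NLS and KO-NES were knockout lines that again expressed IMPDH2, with no localisation tag, targeted to the nucleus and kept in the cytosol respectively, and had no guanosine. All groups grew in DMEM with fetal bovine serum, and 5 of the 6 shared the knockout. The cell line label counts up by 1 from sample to sample, as does the IMPDH number in the genotype label within KO-NLS and KO-NES. They were read here as MDA-MB-231 and IMPDH2 throughout, which the labels do not state. The labels do not say whether a line is 1 clone or whether the 3 libraries of a group are separate cultures, so p-values measure the spread between these libraries, which may be technical.

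A serpin traps its target protease by offering a reactive loop as bait: once the protease cuts the loop, the serpin changes shape and holds the enzyme in a stable complex. Most members of clades A, C, D, E, F and G are secreted and act on clotting, fibrinolysis and inflammation. Members of clade B lack a classical signal peptide and act mainly inside cells, and a few serpins, such as the collagen chaperone SERPINH1, inhibit no protease.

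IMPDH2 itself had 319, 318 and 319 CPM in WT and 41.4, 42.3 and 41.2 in KO-G, a log2 fold change of -2.94. CPM are a library's counts scaled to a common total with TMM factors. With guanosine IMPDH2 had 22, 22.2 and 22 CPM. The labels do not say where the gene was cut. It was higher than in KO-G in all 3 reconstituted groups, with means of 532 CPM in KO-WT, 297 in KO-NLS and 379 in KO-NES. Library totals ran from 45865079 to 63276484 estimated counts. All 5 marker genes of MDA-MB-231 were at 1 TPM (a library's transcripts, per length, scaled to a common total) or more in each group. ESR1 and PGR reached at most 0.0302 TPM as group means, and ERBB2, which encodes HER2, averaged 20.2 to 25.9 TPM. Summed levels of 8 luminal or epithelial markers were 655 to 712 TPM in WT and 313 to 467 TPM in the groups with the knockout. Mitochondrial transcripts took 5.15% to 5.21% of counts in WT and 7.25% to 8.21% elsewhere. These values separate WT from all other groups, as several serpins do below, and their part in those results was not tested.

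Of the 34 members, 12 reached a mean of 1 TPM in at least 1 group. TPM divides by transcript length and so allows genes to be compared within a group. Values are given for 11 of the 12. SERPINB6 had 95.1 ± 2.67 TPM (SD, n = 3) in WT, followed there by SERPINB1, SERPINH1, SERPINE2 and SERPINB2, and of these neighbours only SERPINB1 and SERPINH1 overlapped. In KO-G the order was SERPINB1 at 79.1 ± 2.61 TPM, SERPINE2 at 73.1 ± 5.62, SERPINB6 at 72.8 ± 1.22 and SERPINH1 at 64.8 ± 2.81, with the ranges of SERPINE2 overlapping those of SERPINB1 and SERPINB6. In KO+G SERPINH1 was the most abundant, at 84.2 ± 1.59 TPM. SERPINE2 came to 87.1 ± 2.67 TPM in KO-NES, above SERPINH1 and SERPINB6. SERPINB2 went from 38.1 TPM in WT to the lowest mean of the 12 in each of the other 5 groups, though its range overlapped that of SERPINA1 in KO-NES, while SERPIND1 was the lowest in WT at 0.638 TPM and reached 9.24 TPM in KO-G.

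The members differed widely in how far they moved between groups. From the highest to the lowest group mean in CPM, SERPIND1 spanned 14.3-fold, SERPINB9 9.1-fold and SERPINA1 3.82-fold. SERPINB2 spanned more than these, from 48.7 CPM in WT to 0.0551 CPM in KO-NLS, but the latter rests on 5, 2 and 2 counts. The abundant genes spanned much less, with 1.95-fold for SERPINE2, 1.67-fold for SERPINB1, 1.49-fold for SERPINB6 and 1.3-fold for SERPINH1.

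**Figure D1:**
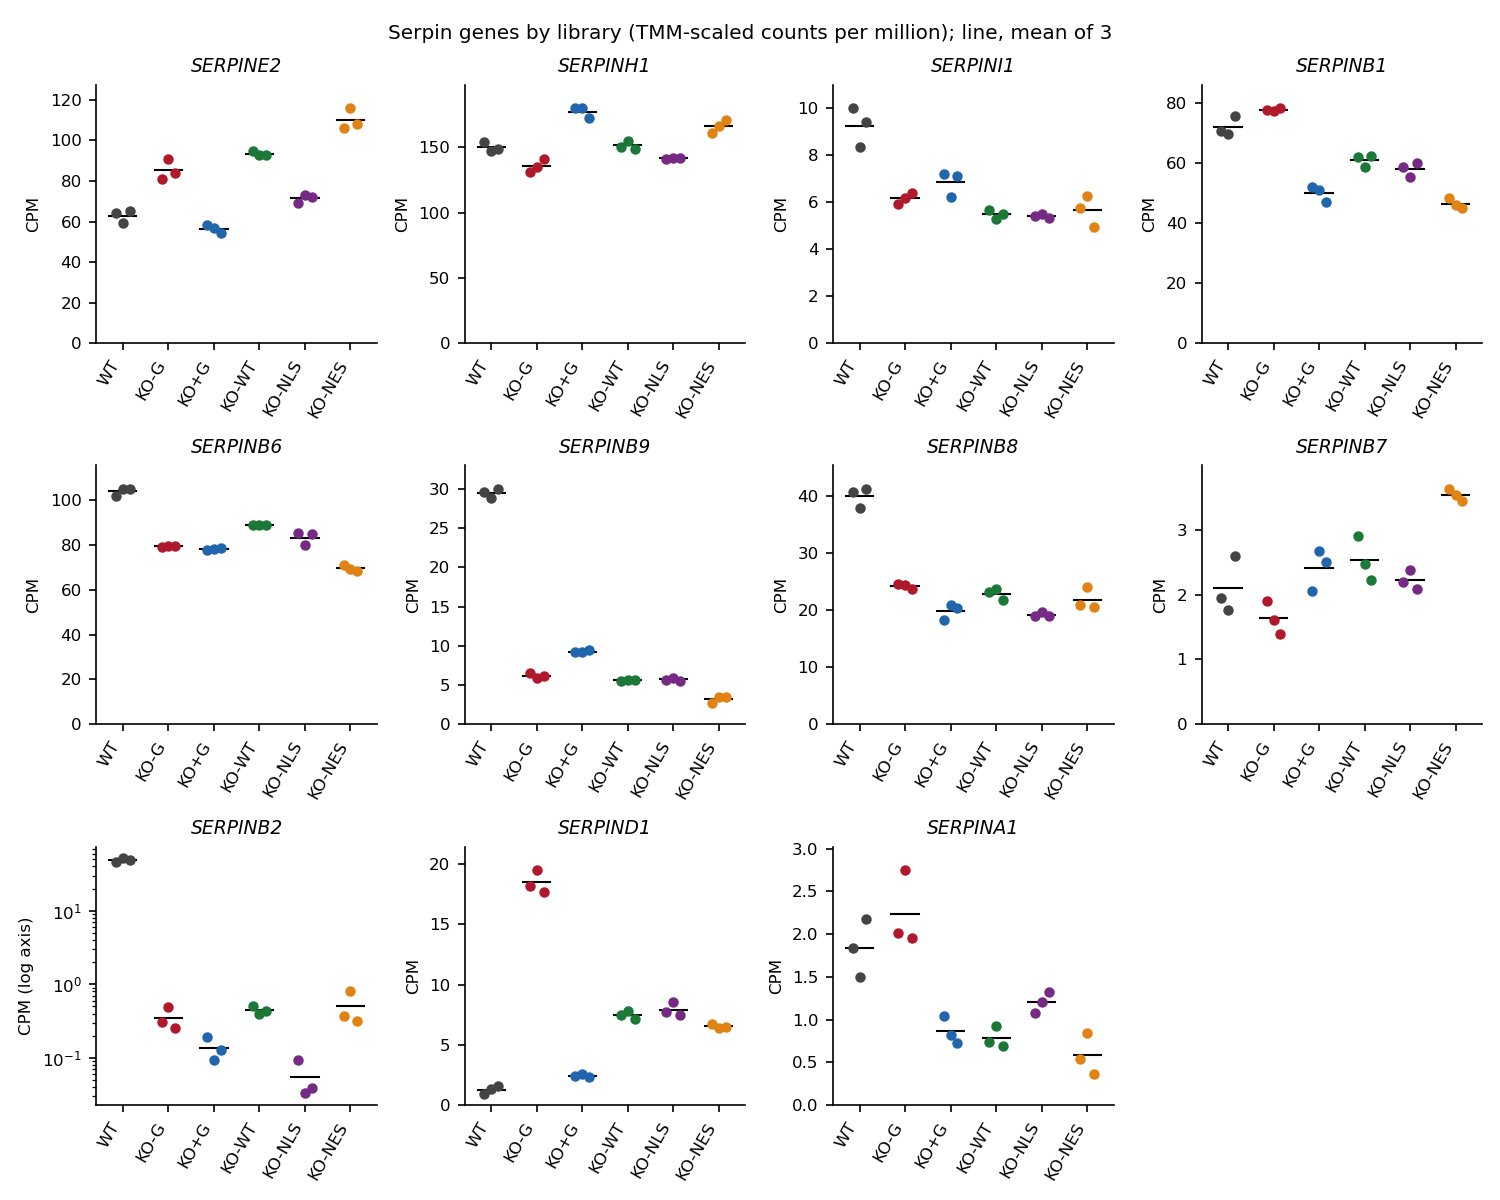
TMM-scaled CPM (vertical axis, linear from 0 except for SERPINB2, which has a log axis) of 11 serpin genes that reached 1 TPM, by group (horizontal axis); points are libraries and lines the mean of 3. SERPINB2 and SERPINB9 are highest in WT, and SERPIND1 is highest in KO-G at 17.7 to 19.5 CPM.

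A pair of promoter stretches are shown because their genes had the deepest losses among the described members in KO-G against WT. They are RefSeq sequence on GRCh38.p14, 5′ to 3′ on the gene's strand, ending at the RefSeq start or before the first base annotated as exon. SERPINB2 is at chr18:63887455-63887699 on the plus strand and SERPINB9 at chr6:2903310-2903559 on the minus strand. Capitals mark matches to an AP-1 site (TGANTCA) or a TATA box (TATAAA).
SERPINB2: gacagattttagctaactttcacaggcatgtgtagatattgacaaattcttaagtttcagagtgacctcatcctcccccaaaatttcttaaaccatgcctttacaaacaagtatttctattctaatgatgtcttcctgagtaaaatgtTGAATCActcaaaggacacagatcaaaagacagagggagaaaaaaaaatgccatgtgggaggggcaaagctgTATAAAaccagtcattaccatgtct
SERPINB9: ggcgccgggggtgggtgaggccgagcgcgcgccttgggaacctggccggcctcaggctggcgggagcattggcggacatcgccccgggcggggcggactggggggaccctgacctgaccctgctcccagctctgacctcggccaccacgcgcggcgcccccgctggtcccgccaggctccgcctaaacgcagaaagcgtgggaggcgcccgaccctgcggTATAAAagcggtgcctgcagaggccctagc
The TATA box lies 30 bases before the start in both genes, and the AP-1 match lies 102 bases before that of SERPINB2. Over 35116 promoters of 250 bases, searched on both strands, 10.7% held the TATA box and 6.57% the AP-1 site. A cyclic AMP response element (TGACGTCA), held by 1.65%, and an NF-kB site, held by 1.73%, were searched as well and had no match in either stretch. The former was searched as that exact sequence only, and the SERPINB2 stretch holds the similar TGACCTCA. The motifs were chosen with the results known, and a match describes letters only. Of the 34 members, 27 had a promoter in the table.

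The comparison of KO-G with WT covers the loss of IMPDH2 and any other difference between the lines, which it cannot tell apart. Of 16 members with enough counts to test, 4 were higher, 10 lower and 2 did not pass. Among all 19252 genes tested, 72.7% were called, 35.9% higher and 36.8% lower, so a call by itself says little here. At a fold of at least 2, 5 members were called where 22.7% of all genes were. The median log2 fold change was -0.49 over the 16 members and 0.01 over all genes tested. These 16 are not all members: SERPINB4 reached the count filter through WT alone and SERPINF1 through KO-NLS alone. SERPINB2 reached it through WT, KO-G, KO-WT and KO-NES. SERPING1 was at the filter level in every library of WT only, but single libraries of KO-G and KO-NLS reached that level too. With library totals in place of TMM factors, 61.5% of the genes called were higher, against 49.4% with TMM, the median of all genes moved to 0.17, and the members split into 4 higher and 8 lower.

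Among the secreted serpins, SERPIND1 showed the widest gain. It encodes heparin cofactor II, a thrombin inhibitor made mainly by the liver, and lies at chromosome 22, 20773879 to 20787720 (GRCh38, GENCODE 29). Its level was 0.94, 1.36 and 1.56 CPM in WT and 18.2, 19.5 and 17.7 CPM in KO-G. The groups lay far apart, and the log2 fold change was 3.85 (SE 0.11, adjusted p = 1.47e-15), or 14.4-fold. In bulk RNA, more cells expressing a gene and more RNA per cell cannot be told apart. Transcript SERPIND1-201 carried at least 99.7% of the gene's TPM in each of the 6 groups. SERPIND1 lies within PI4KA on the opposite strand. PI4KA was looked up for that overlap, at 91.5 ± 1.58 CPM in WT and 86.1 ± 1.83 CPM in KO-G. Of 9 hepatocyte markers, none reached 1 TPM in any group. Their summed level was 0.397 to 2.22 TPM in WT and 0.223 to 0.392 TPM in KO-G, with APOA2, FGA and TTR listed at 0 in all groups.

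SERPINE2, or protease nexin 1, inhibits thrombin and urokinase at the cell surface. It had 64, 59.2 and 65.1 CPM in WT and 81.1, 90.7 and 83.9 CPM in KO-G, again without overlap, and rose by 0.44 (SE 0.044, adjusted p = 4.92e-08) on the log2 scale. A retained-intron transcript, SERPINE2-209, took 32.6% of the gene's TPM in WT and 33.4% in KO-G.

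SERPINA1 encodes alpha-1 antitrypsin, the main plasma inhibitor of neutrophil elastase. It was low, at 1.84, 1.5 and 2.18 CPM in WT and 2.01, 2.75 and 1.95 CPM in KO-G. The groups overlapped and the difference did not pass, at 0.28 (SE 0.22, adjusted p = 0.277) on the log2 scale.

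In clade B, SERPINB2, SERPINB4, SERPINB6, SERPINB7, SERPINB8 and SERPINB9 were called lower and SERPINB1 higher. Of these, SERPINB4 had passed the count filter through WT alone. SERPINB2, plasminogen activator inhibitor 2, inhibits urokinase and is kept largely inside the cell. It lies at chromosome 18, 63871692 to 63903890. It had 46, 51.7 and 48.3 CPM in WT and 0.305, 0.495 and 0.253 CPM in KO-G. No library of KO-G came near the WT level, and the log2 fold change was -7.12 (SE 0.2, adjusted p = 1e-15), or 139-fold lower. The estimated counts behind these values were 7304 in the WT libraries together and 60 in those of KO-G.

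SERPINB9 inhibits granzyme B, the protease that cytotoxic lymphocytes inject into target cells. It had 29.6, 28.8 and 30 CPM in WT and 6.54, 5.94 and 6.14 CPM in KO-G. Every KO-G library was below every WT library, and the log2 fold change was -2.25 (SE 0.065, adjusted p = 1.05e-15), or 4.74-fold lower. Its lymphocyte target GZMB was listed at 0 in WT, KO-G, KO-WT and KO-NLS.

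SERPINB8, an inhibitor of furin, had 40.7, 37.9 and 41.2 CPM in WT and 24.5, 24.4 and 23.7 CPM in KO-G, and fell by 0.72 (SE 0.058, adjusted p = 2.05e-09) on the log2 scale. FURIN itself fell by 0.56. SERPINB6, which inhibits cathepsin G, had 102, 105 and 105 CPM in WT and 79.3, 79.5 and 79.7 CPM in KO-G, and fell by 0.39 (SE 0.025, adjusted p = 7.71e-11). In both genes the groups did not overlap. One SERPINB6 isoform, SERPINB6-203, was listed at 43.34 TPM in KO-G replicate 1 and at 0 in the other 17 libraries, while the gene summed to 72.4, 74.1 and 71.8 TPM in the KO-G libraries, so the isoform split of this gene is uncertain. SERPINB1, an inhibitor of neutrophil elastase and cathepsin G, was slightly higher in KO-G (coding transcripts held 36.4% to 42.5% of its TPM across groups), at 77.6, 77.3 and 78.2 CPM against 70.4, 69.6 and 75.4 CPM. Its log2 fold change was 0.11 (SE 0.041, adjusted p = 0.0174), and with an offset for transcript length it was 0.13 with adjusted p = 0.0921, and without WT replicate 2 it was 0.09 with adjusted p = 0.0877. SERPINB7 had 1.95, 1.76 and 2.6 CPM in WT and 1.9, 1.61 and 1.39 CPM in KO-G. These overlapped, and the call at -0.37 (adjusted p = 0.0419) was lost under DESeq2 (adjusted p = 0.0517) and without WT replicate 1 or 3 or KO-G replicate 2 or 3, with adjusted p from 0.0512 to 0.344.

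SERPINI1, or neuroserpin, inhibits PLAT and is best known from neurons. It had 10, 8.35 and 9.4 CPM in WT and 5.93, 6.19 and 6.38 CPM in KO-G, without overlap, and fell by 0.58 (SE 0.085, adjusted p = 5.89e-06) on the log2 scale. SERPINH1, also called HSP47, is the collagen chaperone of the endoplasmic reticulum. It had 154, 147 and 149 CPM in WT and 131, 135 and 141 CPM in KO-G, and its log2 fold change was -0.14 (SE 0.031, adjusted p = 0.000511) with TMM factors but 0.02 (adjusted p = 0.58) with library totals and -0.06 (adjusted p = 0.0871) from coding transcripts alone.

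4 further members were tested below 1 TPM. SERPING1, the C1 inhibitor of complement, averaged 0.469 CPM in WT and 0.107 to 0.21 CPM elsewhere. SERPINF2, the plasmin inhibitor alpha-2 antiplasmin, averaged 0.519 CPM in WT and 0.211 to 0.334 CPM elsewhere. The SERPING1 call in KO-G against WT, at -1.16 (adjusted p = 0.0159), ended without WT replicate 1 (0.0718) or KO-G replicate 3 (0.0714). The SERPINF2 call there, at -0.91 (adjusted p = 0.0166) with overlapping libraries, ended without WT replicate 1 (0.0606), WT replicate 3 (0.136) or KO-G replicate 2 (0.0564). SERPINF1, the non-inhibitory pigment epithelium-derived factor, was highest in KO-NLS, at 0.334 CPM against 0.104 to 0.19 CPM. It had passed the count filter through KO-NLS alone, which favours higher values in that group. Its call against KO-G, at 1.57 (adjusted p = 0.00419), ended with an offset for transcript length, at 0.92 (adjusted p = 0.232). SERPINB4, a squamous cell carcinoma antigen, had 11, 17 and 22 counts in the WT libraries and 0, 1 and 0 in those of KO-G. The ratio of WT to KO-G was 57.6, with a 95% exact interval for counting error of 9.88 to 2320. That interval pools the libraries of each group and leaves out the spread between them. SERPINB4 had passed the count filter through WT alone, which favours WT in these ratios. Over KO+G and KO-NES together no count was found, so WT was at least 16.3-fold higher than KO+G and at least 18.1-fold higher than KO-NES with 3 counts for the whole group as the floor. SERPINB4 shares much of its sequence with SERPINB3, and how the authors' counting split their reads is uncertain.

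The remaining 18 members were too low to test. 7 of them had no count in any library, and none exceeded 0.234 TPM. Among these were SERPINC1 (antithrombin), with 34 counts over 18 libraries, and the maspin gene SERPINB5, with 12. SERPINA3 had 15 counts and SERPINB3 had 6.

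Position set the clade B members in context. On chromosome 18, 10 members lie within 0.54 Mb. Of these SERPINB2, SERPINB7 and SERPINB8 reached 1 TPM. All 19 tested coding neighbours of SERPINB2 within 5 Mb, a window chosen with the results known, had lower values in KO-G than in WT, with a median log2 fold change of -1.11. Relative to its neighbours' median SERPINB2 stood at -6.02 in KO-G, while SERPINB8 stood at 0.38 and SERPINB7 at 0.75. The neighbours of SERPINB2 were all lower than in WT in KO+G, KO-WT, KO-NLS and KO-NES too. Their medians there were -0.96, -0.78, -0.92 and -0.93. In the same order SERPINB8 stood at -0.04, -0.03, -0.14 and 0.06 relative to its neighbours, and SERPINB2 at -7.49, -5.99, -8.83 and -5.61. On chromosome 6, SERPINB1, SERPINB6 and SERPINB9 lie within 0.14 Mb, and the 34 neighbours of SERPINB9 had a median of 0.32 with 26.5% lower. Relative to that median SERPINB9 stood at -2.56 and SERPINB6 at -0.71, and SERPINB1 stood at -0.22 relative to its 33 neighbours. The 85 neighbours of SERPIND1 had a median of 0.14. The part of the neighbourhood in the lower values of the chromosome 18 serpins was not tested.

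**Figure D2:**
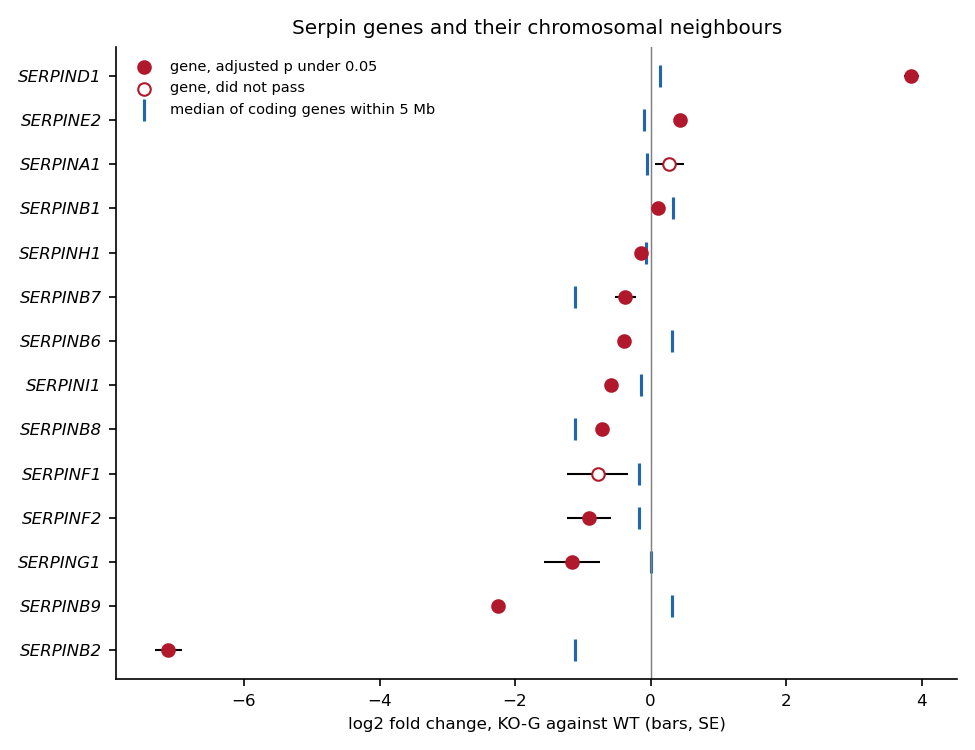
Log2 fold change of KO-G against WT (horizontal axis, bars are SE) for 14 of the 16 tested serpin genes (vertical axis), SERPINB4 among those not drawn for its counts near 0; filled circles passed an adjusted p of 0.05, and blue ticks are the median of tested coding genes within 5 Mb. SERPIND1 at 3.85 and SERPINB2 at -7.12 lie farthest from their neighbours.

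The comparison of KO+G with KO-G asks which changes guanosine alters when the enzyme is missing. It and the 3 comparisons that follow share the KO-G libraries, so their values are set side by side and no overlap between them is counted. Guanosine left 3 members higher, 7 lower and 6 that did not pass, where 56.5% of all genes tested were called, 27.3% higher and 29.2% lower. 3 members passed with a fold of at least 2, against 7.69% of all genes. The median was -0.44 over the 16 members and -0.02 over all genes.

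SERPIND1 fell most among the members described, from 18.2, 19.5 and 17.7 CPM to 2.44, 2.59 and 2.3 CPM. That was a log2 fold change of -2.91 (SE 0.1, adjusted p = 1.23e-13), or 7.53-fold lower. KO+G still exceeded WT by 0.93 (adjusted p = 3.81e-06), with no overlap. SERPINE2 came to 58.4, 56.6 and 54.5 CPM and fell by 0.59 against KO-G (SE 0.044, adjusted p = 2.58e-09). SERPINA1 came to 1.04, 0.826 and 0.732 CPM, below every KO-G library, with a change of -1.37 (SE 0.24, adjusted p = 8.08e-05).

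The clade B members did not share 1 direction. SERPINB1 came to 51.8, 50.9 and 47 CPM and fell by 0.64 (adjusted p = 3.73e-10), below both KO-G and WT. SERPINB8 came to 18.3, 20.9 and 20.4 CPM and fell by 0.28 (adjusted p = 0.000589). SERPINB9 rose from 6.54, 5.94 and 6.14 CPM to 9.17, 9.2 and 9.43 CPM, a log2 change of 0.58 (SE 0.066, adjusted p = 6.46e-07), and remained 1.67 below WT. SERPINB7 came to 2.06, 2.68 and 2.5 CPM, above every KO-G library, and rose by 0.56 (adjusted p = 0.00439). SERPINB2 stayed near the bottom of its range, at 0.191, 0.0939 and 0.129 CPM. Its change of -1.33 (adjusted p = 0.0134) rests on 20 counts in KO+G and 60 in KO-G. The adjusted p was 0.0778 without KO-G replicate 2 and 0.0693 without KO+G replicate 2. SERPINB6 stood at 77.8, 78.3 and 78.8 CPM, a difference of -0.02 (SE 0.025, adjusted p = 0.5) that became -0.09 with adjusted p = 0.00527 under library totals. SERPINH1 rose to 180, 180 and 172 CPM, its highest of the 6 groups, by 0.39 (SE 0.031, adjusted p = 5.84e-09). SERPINI1 stood at 7.19, 6.21 and 7.13 CPM, overlapping KO-G, at 0.15 (adjusted p = 0.154).

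**Figure D3:**
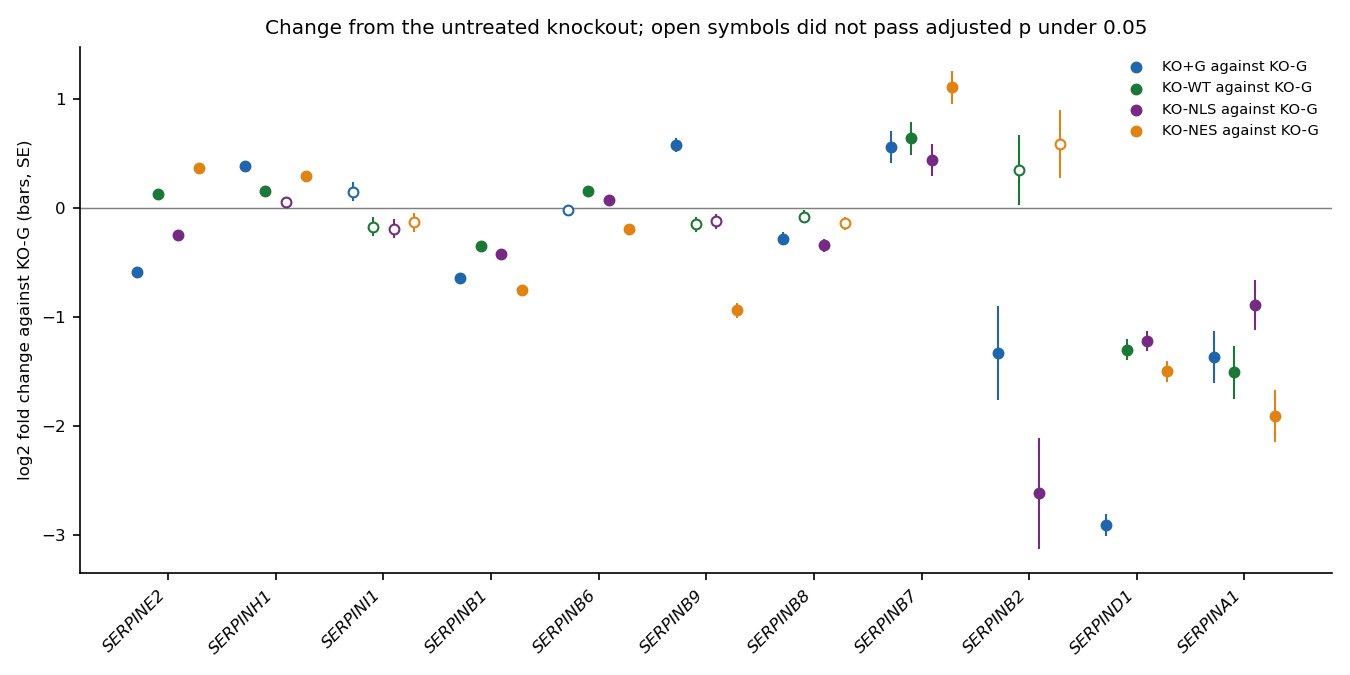
Log2 fold change against KO-G (vertical axis, bars are SE) of 11 serpin genes (horizontal axis) in KO+G, KO-WT, KO-NLS and KO-NES, which share the KO-G libraries; open symbols did not pass an adjusted p of 0.05. SERPIND1 is lower in all 4, from -2.91 in KO+G to -1.22 in KO-NLS.

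Giving IMPDH2 back addresses the same question with the enzyme itself. In KO-WT against KO-G, 4 members were higher, 4 lower and 8 did not pass, where 50.8% of all genes were called, 25.7% higher and 25.1% lower. In KO-NLS 3 were higher, 7 lower and 6 did not pass, against 53% of all genes, 26.1% higher and 26.9% lower. The 3 higher include SERPINF1, which had passed the count filter through KO-NLS alone, and this favours higher values there. In KO-NES 4 were higher, 5 lower and 7 did not pass, against 50.6% of all genes, 24.6% higher and 26% lower. Over both directions, 50% of the 16 tested members were called in KO-WT, 62.5% in KO-NLS and 56.2% in KO-NES, shares that are coarse with so few members. With a fold of at least 2, 2 members were called in KO-WT, 3 in KO-NLS and 3 in KO-NES, against 4.96%, 6% and 5.52% of all genes. SERPINF1 is among the 3 in KO-NLS here as well. These splits depend on scaling. With library totals the members counted 3 higher and 7 lower in KO-WT, 1 and 9 in KO-NLS, and 3 and 7 in KO-NES. Without KO-G replicate 2, 1 member was higher in KO-NLS. Of all genes called, the higher share went from 50.6% to 35.3%, from 49.3% to 35% and from 48.6% to 32.2% in the same order.

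SERPIND1 had 7.51, 7.84 and 7.14 CPM in KO-WT, 7.72, 8.53 and 7.45 CPM in KO-NLS, and 6.75, 6.37 and 6.5 CPM in KO-NES. Each of these libraries lay between the WT and the KO-G libraries. The log2 fold changes against KO-G were -1.3, -1.22 and -1.5, with adjusted p = 2.5e-09, 4.04e-09 and 4.21e-10. Against WT the 3 groups remained 5.85-fold, 6.17-fold and 5.1-fold higher.

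SERPINB2 and SERPINB9 stayed far below WT in all 3 reconstituted groups. SERPINB2 had 0.505, 0.399 and 0.428 CPM in KO-WT, 0.0932, 0.0328 and 0.0394 CPM in KO-NLS, and 0.37, 0.818 and 0.321 CPM in KO-NES. KO-WT and KO-NES overlapped KO-G. The KO-NES difference of 0.59 had adjusted p = 0.129, and 0.0409 without KO-G replicate 2 or 0.0359 without KO-NES replicate 3. KO-NLS against KO-G came to -2.62 (SE 0.51, adjusted p = 0.000293) on the log2 scale, on 9 counts in KO-NLS, and to -3.2 without KO-NLS replicate 1. SERPINB9 had 5.46, 5.68 and 5.6 CPM in KO-WT, 5.7, 5.91 and 5.52 CPM in KO-NLS, and 2.75, 3.43 and 3.51 CPM in KO-NES. Its differences from KO-G did not pass in KO-WT (-0.15, SE 0.068, adjusted p = 0.0698) or KO-NLS (-0.12, SE 0.068, adjusted p = 0.154), and in KO-NES it fell by 0.94 (SE 0.072, adjusted p = 5.73e-09). With library totals both smaller differences passed, at -0.23 (adjusted p = 0.00897) and -0.2 (adjusted p = 0.0202).

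SERPINA1 and SERPINB1 were lower than in KO-G in each of the 3. SERPINA1 had 0.739, 0.925 and 0.688 CPM in KO-WT, 1.08, 1.21 and 1.32 CPM in KO-NLS, and 0.546, 0.85 and 0.361 CPM in KO-NES, all below the lowest KO-G library at 1.95 CPM. Its changes were -1.51, -0.89 and -1.91. SERPINB1 had 61.9, 58.6 and 62.2 CPM in KO-WT, 58.7, 55.3 and 59.9 CPM in KO-NLS, and 48.3, 45.9 and 44.9 CPM in KO-NES, with changes of -0.35, -0.42 and -0.75. None of these libraries reached the KO-G level.

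SERPINB7, also called megsin, had 2.9, 2.48 and 2.23 CPM in KO-WT, 2.2, 2.38 and 2.09 CPM in KO-NLS, and 3.63, 3.54 and 3.45 CPM in KO-NES, its highest group. It rose by 0.64, 0.44 and 1.11, with no library as low as those of KO-G. The SERPINB7 change in KO-NLS did not pass with library totals, at adjusted p = 0.0546, nor without KO-G replicate 2 or 3 or KO-NLS replicate 2, with adjusted p from 0.0527 to 0.106. SERPINI1 had 5.66, 5.28 and 5.49 CPM in KO-WT, 5.39, 5.48 and 5.34 CPM in KO-NLS, and 5.75, 6.24 and 4.94 CPM in KO-NES. It did not pass in any of the 3, with differences of -0.17, -0.19 and -0.13 and an SE of 0.086 in each, while with library totals all 3 passed, with adjusted p from 0.0105 to 0.0396.

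SERPINE2 had 94.8, 92.8 and 92.7 CPM in KO-WT and rose by 0.13 (SE 0.043, adjusted p = 0.015). That call ended with library totals, at 0.05 (adjusted p = 0.313), and with coding transcripts alone, at 0.09 (adjusted p = 0.15). It also ended without KO-G replicate 1 or 3 or KO-WT replicate 1, with adjusted p from 0.0507 to 0.0669. In KO-NLS SERPINE2 fell by 0.25 (adjusted p = 8.31e-05) against KO-G. SERPINB6 had 88.9, 89 and 89 CPM in KO-WT, 85.4, 79.8 and 84.8 CPM in KO-NLS, and 70.9, 69.4 and 68.6 CPM in KO-NES. It was thus above KO-G with the unlocalised enzyme and below it with the cytosolic one, at 0.16 (adjusted p = 2.77e-05) and -0.19 (adjusted p = 4.89e-06). Its call in KO-NLS, at 0.07, became -0.02 with adjusted p = 0.604 under library totals and ended without any 1 of KO-G replicates 2 and 3 and KO-NLS replicates 1 and 3, with adjusted p from 0.0577 to 0.181. SERPINB8 had 23.1, 23.7 and 21.8 CPM in KO-WT, 18.9, 19.7 and 18.9 CPM in KO-NLS, and 20.8, 24.1 and 20.6 CPM in KO-NES, and passed in KO-NLS with -0.34 (adjusted p = 0.000111). In KO-WT it stood at -0.08 (adjusted p = 0.261) and in KO-NES at -0.14 (adjusted p = 0.0504). With library totals both passed, with adjusted p = 0.0247 and 0.00248. The KO-NES difference also passed without the count filter, with a replicate block and with coding transcripts alone. It passed without KO-NES replicate 2 as well, and the adjusted p in these alternatives ran from 0.00259 to 0.0466. SERPINH1 had 150, 155 and 149 CPM in KO-WT, 141, 142 and 142 CPM in KO-NLS, and 161, 166 and 171 CPM in KO-NES. It rose by 0.16 in KO-WT and 0.29 in KO-NES, and the 0.06 in KO-NLS did not pass (adjusted p = 0.115), though it was 0.09 (adjusted p = 0.0246) without KO-G replicate 3.

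The nuclear and the cytosolic enzyme were then compared directly, KO-NLS against KO-NES. Of the 16 members, 6 were higher with the nuclear form, 6 lower and 4 did not pass, while 23.9% of all genes tested were called, 13.4% higher and 10.5% lower. The called share of the tested members was 75%, but SERPINF1 had passed the count filter through KO-NLS alone, and these 16 leave out 18 members. 3 members passed with a fold of at least 2, against 1.73% of all genes. The 2 groups differed in IMPDH2 too, which was 0.35 lower in KO-NLS on the log2 scale, and what that difference did to the serpins was not tested.

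SERPINE2 had 69.3, 73.2 and 72.1 CPM in KO-NLS and 106, 116 and 108 CPM in KO-NES, and was 0.62 lower with the nuclear form (SE 0.043, adjusted p = 1.69e-08). In KO-NES it also exceeded KO-G, by 0.37 (adjusted p = 9.77e-07), and the KO-NLS and KO-NES libraries did not overlap.

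SERPINB2 was 3.21 lower with the nuclear form (SE 0.47, adjusted p = 7.18e-05), on 9 counts in KO-NLS and 86 in KO-NES. Without KO-NLS replicate 1 the log2 difference was -3.78, and without KO-NES replicate 2 it was -2.62. SERPINB7 was 0.67 lower (adjusted p = 0.00281) and SERPINH1 0.23 lower (adjusted p = 2.84e-05). SERPINB9, SERPINB1, SERPINB6 and SERPINA1 were higher with the nuclear form. SERPINB1 differed by 0.32 (adjusted p = 2.21e-05) and SERPINB6 by 0.26 (adjusted p = 8.79e-07). SERPINB9 differed by 0.82 (SE 0.073, adjusted p = 2.83e-07) and SERPINA1 by 1.02 (SE 0.25, adjusted p = 0.00601). SERPIND1 was called at 0.27 (adjusted p = 0.0452), and the call ended under DESeq2 size factors, where the adjusted p was 0.0517. It also ended without KO-NLS replicate 1 or 2 or without any 1 of the KO-NES replicates, with adjusted p from 0.0667 to 0.177. SERPINB8, at -0.19 (adjusted p = 0.0267), ended without KO-NLS replicate 1 or 3 or KO-NES replicate 2, with adjusted p from 0.0839 to 0.19. SERPINF1, at 1.65 (adjusted p = 0.00897), ended with the length offset, at 1.11 (adjusted p = 0.275).

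Against WT, which these 4 comparisons share, the members stood as follows. In KO+G 2 were higher and 12 lower, where 63.9% of all genes were called, 31% higher and 32.9% lower. In KO-WT 3 were higher and 9 lower, against 64.5% of all genes, 31.1% higher and 33.4% lower. In KO-NLS 2 were higher and 11 lower, against 65.1% of all genes, 31.5% higher and 33.5% lower. In KO-NES 5 were higher and 10 lower, against 67.6% of all genes, 32.9% higher and 34.7% lower. At a fold of at least 2 the members called were 6, 6, 6 and 7 in this order, against 14.5%, 14.9%, 15.1% and 17.5% of all genes. With library totals KO-WT had 5 higher and 9 lower, and of all genes called in KO+G the higher share was 58.8% instead of 48.6%. SERPINA1, SERPINB1, SERPINB2, SERPINB4, SERPINB6, SERPINB8, SERPINB9, SERPINI1 and SERPING1 were lower than in WT in each of the 4. Of these, SERPINB4 had passed the count filter through WT alone, which favours lower values in the other groups. SERPING1 was at the filter level in every library of WT only, but also in single libraries of KO-G and KO-NLS. Both genes enter the counts above. SERPIND1 was higher in each of the 4. The SERPINA1 call in KO-NLS, at -0.61, ended without WT replicate 1 or 3 or KO-NLS replicate 1 or 2, with adjusted p from 0.0607 to 0.133. SERPINB9 was lowest in KO-NES, 9.1-fold below WT. SERPINB2 was lowest in KO-NLS, at -9.74 on the log2 scale against WT on 9 counts in KO-NLS, and at -10.3 without KO-NLS replicate 1.

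Plasminogen activation is the pathway on which several serpins act. Of 20 genes listed for plasminogen activation, 18 were tested, and 5 were higher, 8 lower and 5 did not pass in KO-G against WT, a called share of 72.2% against 72.7% of all genes. PLAU, the protease inhibited by SERPINE2 and SERPINB2, had 478, 478 and 488 CPM in WT and 229, 229 and 238 CPM in KO-G, a log2 change of -1.05. With guanosine it had 551, 529 and 534 CPM, 1.21 above KO-G. PLAT rose by 0.63 in KO-G, from 151, 143 and 163 CPM to 243, 218 and 247 CPM, and fell by 0.31 with guanosine. The urokinase receptor PLAUR did not pass in either comparison, at -0.08 in both. LRP1, which clears complexes of serpin and protease from the cell surface, fell by 1.24 in KO-G and stood at 0.06 (adjusted p = 0.645) with guanosine against KO-G. Between the 2 localised forms, 6 of the 18 genes were higher and 2 lower with the nuclear enzyme, where 13.4% of all genes were higher and 10.5% lower. There PLAU was 0.37 higher and LRP1 0.69 higher.

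**Figure D4:**
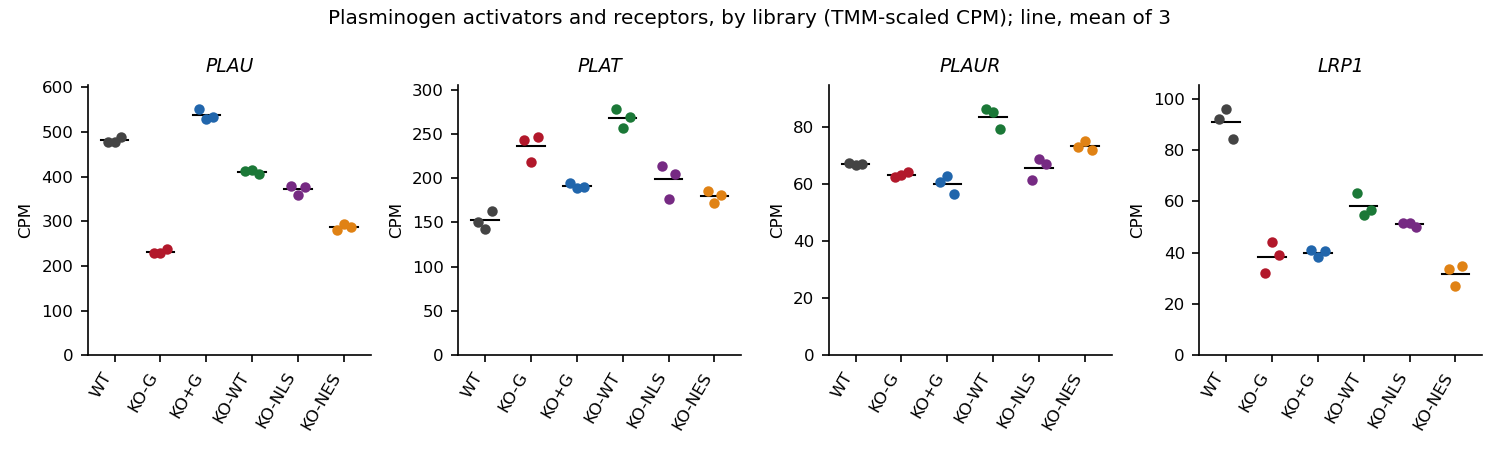
TMM-scaled CPM (vertical axis, linear from 0) of PLAU, PLAT, PLAUR and LRP1 by group (horizontal axis); points are libraries and lines the mean of 3. PLAU is lowest in KO-G at 229 to 238 CPM and highest in KO+G at 529 to 551 CPM.

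Around SERPIND1, 25 coagulation and complement genes were listed and 14 tested, with 6 higher and 6 lower in KO-G, where 35.9% of all genes were higher and 36.8% lower. Tissue factor (F3), which starts clotting, fell by 2.62 from 308, 308 and 309 CPM to 52.4, 48.3 and 50.1 CPM. The thrombin receptor F2R fell by 1.39 and the related protease-activated receptor F2RL1 by 2.07. Against WT, F3 stood at -1.71 in KO+G, -2.43 in KO-WT, -2.57 in KO-NLS and -2.44 in KO-NES. In the same order F2R stood at -1.06, -1.36, -1.4 and -1.51, and F2RL1 at -1.67, -2.02, -2.06 and -2.32. TFPI, which inhibits the tissue factor pathway, fell by 0.5 in KO-G.

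Inhibitors of other folds were compared from a list of 30, of which 20 were tested, with 10 higher and 8 lower in KO-G, where 72.7% of all genes were called. With guanosine 2 were higher and 13 lower than in KO-G, at a median of -0.67, where 27.3% of all genes were higher and 29.2% lower, at a median of -0.02. TFPI2, a Kunitz-type inhibitor of the extracellular matrix, went from 40.9, 44 and 46 CPM in WT to 308, 319 and 291 CPM in KO-G and 78, 79.9 and 76.5 CPM in KO+G. It rose by 2.81 in KO-G against WT and fell by 1.97 with guanosine. SLPI, an elastase inhibitor, rose by 3.95 in KO-G but from a mean of 0.15 CPM. SPINT1, an inhibitor of membrane serine proteases, fell by 1.9, and SPINT2 did not pass at -0.01. The cystatins CSTB and CST3 rose by 0.44 and 0.72.

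Among 25 lysosomal and leukocyte proteases, 17 were tested, 6 higher and 6 lower in KO-G, a called share of 70.6% against 72.7% of all genes. Cathepsin B (CTSB) did not pass at 0.06 and CTSL rose by 0.08, while CTSV rose by 1.89 from 0.96 ± 0.168 CPM. The neutrophil targets CTSG and ELANE were listed at 0 in all groups. Of 22 genes for collagen folding, the work of SERPINH1, all were tested and 15 were lower and 3 higher in KO-G, at a median of -0.34 against 0.01 over all genes tested, of which 36.8% were lower and 35.9% higher. P4HA1 fell by 0.23 and PLOD2 by 0.37, and FKBP10 rose by 3.05 from 0.496 ± 0.0913 CPM.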

How the data were processed

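Trim Galore 0.6.10, Salmon 1.10.0 and the genome build hg19 are named in the submitters' processing notes. Transcript names in the files are GENCODE headers of a release not given in the sources used here, so positions are from GENCODE 29 (GRCh38), which covers 57804 of 62749 genes. Per the labels, stranded mRNA libraries were made from 500 ng of total RNA. The deposited estimated counts of 252048 transcripts, of which 32.456% of values were not whole, were summed to genes and rounded. The deposited TPM were summed to genes to compare genes. Levels in CPM come from the summed counts and TMM factors, not from the authors.

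All 18 libraries entered 1 edgeR 4.0.16 fit (R 4.3.3) after filterByExpr, which left 19252 genes, with TMM factors, 1 coefficient for each group and quasi-likelihood tests. P-values were adjusted by Benjamini-Hochberg within each of 10 comparisons at 0.05, and every adjusted p in the text is from this test unless another is named. Alternatives were DESeq2 1.42.0, its size factors, library totals, no filter, a replicate block, the compared libraries alone, a transcript-length offset, coding transcripts alone, and each library left out in turn. The code was tested on simulated data.

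Members with a mean of 1 TPM in any group are given in every library, except 1 that is not reported here and enters only counts over members, the rest by range and counts, and related genes by a fixed list of names. Members and lists were chosen with earlier results of these data known. PI4KA, GZMB and single untested members were named after their values were seen. Figures were drawn with matplotlib 3.10.9.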

Additional observations from a re-analysis of the deposited data

How the results depend on the processing

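Of 160 values for 16 members in 10 comparisons, 117 passed, and 98 of those kept direction and call in every alternative that gave a value. Where a call is said above to have ended or been lost, the alternatives named are not always all of those in which that happened. No total over both directions moved by over 1.5 times, but with library totals the higher members went from 3 to 1 in KO-NLS against KO-G and from 3 to 5 in KO-WT against WT, and the lower ones from 4 to 7 in KO-WT against KO-G. The 3 higher in KO-NLS against KO-G were also 1 with the length offset and without KO-G replicate 2. With library totals, SERPINH1 in KO-G against WT turned to 0.02 and SERPINB6 in KO-NLS against KO-G to -0.02; the cause was not tested. With libraries left out, the counts ran from 11 to 14 in KO-G against WT, 9 to 10 in KO+G, 7 to 8 in KO-WT, 8 to 10 in KO-NLS and 9 to 10 in KO-NES against KO-G, 10 to 11 between KO-NLS and KO-NES, and 12 to 14, 12 to 13, 10 to 13 and 15 to 16 for KO+G, KO-WT, KO-NLS and KO-NES against WT. The compared libraries alone and coding transcripts alone gave some members no value, since fewer genes were tested. Replicate numbers recur across groups, and no pairing of the libraries by number was seen. Of 45 same-numbered pairs, 2 had deviations correlated above 0.1, and 2 of 18 libraries matched their own number best. Such weak correlations cannot exclude a pairing. With the replicate block 13 members passed in KO-G against WT instead of 14, 10 instead of 9 in KO-NES against KO-G, and 11 instead of 12 between KO-NLS and KO-NES, and the other 7 counts were equal. For members under 1 CPM, depth limits the precision.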
